A study of Mus musculus with 2 samples.

Results

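The genes described here are 36 members of the autophagy machinery of the mouse, taken by symbol from a list of named genes and not by their values. They were followed in nuclear RNA, labelled as nucleoplasmic, of primary macrophages grown from the bone marrow of C57BL/6J mice, with no genetic change named in the labels. The whole series is 1 group of 2 libraries: every culture received Lipid A at 100 ng/ml for 12 h, was kept without it for 12 h, and was given a final exposure to 100 ng/ml lasting 40 min. Lipid A is the membrane anchor of bacterial lipopolysaccharide and the portion that the receptor TLR4 detects. Untreated, singly treated or cytoplasmic samples were not analysed here, so no value below is a response to Lipid A and no test between conditions was possible. Both libraries are labelled biological replicates but carry the same donor entry, so their spread may be smaller than that between animals. The age and sex of the animals were not collected, per the labels. The 36 members are among 55536 genes with an Ensembl identifier, of which 22028 are protein-coding.

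Autophagy encloses cytoplasm in a double membrane, the autophagosome, which then fuses with lysosomes. The ULK kinase complex starts the process, the class III phosphatidylinositol 3-kinase (PI3-kinase) complexes mark the membrane with a lipid, and a pair of ubiquitin-like conjugation systems attaches the ATG8 proteins to the growing membrane. Cargo receptors tie material such as ubiquitin-coated bacteria to the ATG8 proteins, and in macrophages parts of the same machinery also act on phagosomes. The transcription factors TFEB and TFE3 switch on autophagy and lysosome genes once they enter the nucleus.

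The libraries held 19797829 and 17213606 expected counts, RSEM's estimates of reads per gene. All 8 markers of macrophages were detected, at 59.9 to 1311 TPM, a level scaled by transcript length and library size. Of 8 lists of markers of other blood, stromal and endothelial cells, 1 held a detected gene, Pecam1 at 1.54 TPM, and the summed level of each list lay between 0 and 2.73 TPM in each library. Among the defining markers listed at 0 in both libraries were Cd3e and Cd3g of T cells, Ly6g and Elane of neutrophils, and Pdgfra of fibroblasts. The libraries differed in RNA input, 1000 ng for library 1 and 500 ng for library 2, and mitochondrial genes took 2.63% and 6.60% of their counts. In such bulk samples, fewer cells of a type and less RNA per cell cannot be told apart.

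Of the 36 members, 35 were detected, that is, had 10 or more expected counts in both libraries, against 49.9% of protein-coding genes. The exception was Map1lc3a, with 20 and 9 counts. Together the members took 0.146% of all counts in library 1 and 0.132% in library 2. The median over the 36 members of their mean level was 8.41 TPM. The medians within the libraries were 10.1 TPM in library 1 and 6.82 TPM in library 2 (SD of these medians 2.33 TPM, n = 2 libraries). The median of all 10991 detected protein-coding genes was 6.38 TPM, with 7.07 and 5.57 TPM in the libraries. A total of 24 members lay above that median, and 10 lay at or above the 75th percentile of 17.6 TPM, which by construction takes 25% of the detected genes. Most members were thus of middling abundance, from 0.865 TPM for Map1lc3a to 61.0 TPM for Gabarap, and 1 member, Gabarap, reached the 90th percentile by mean level.

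**Figure D1:**
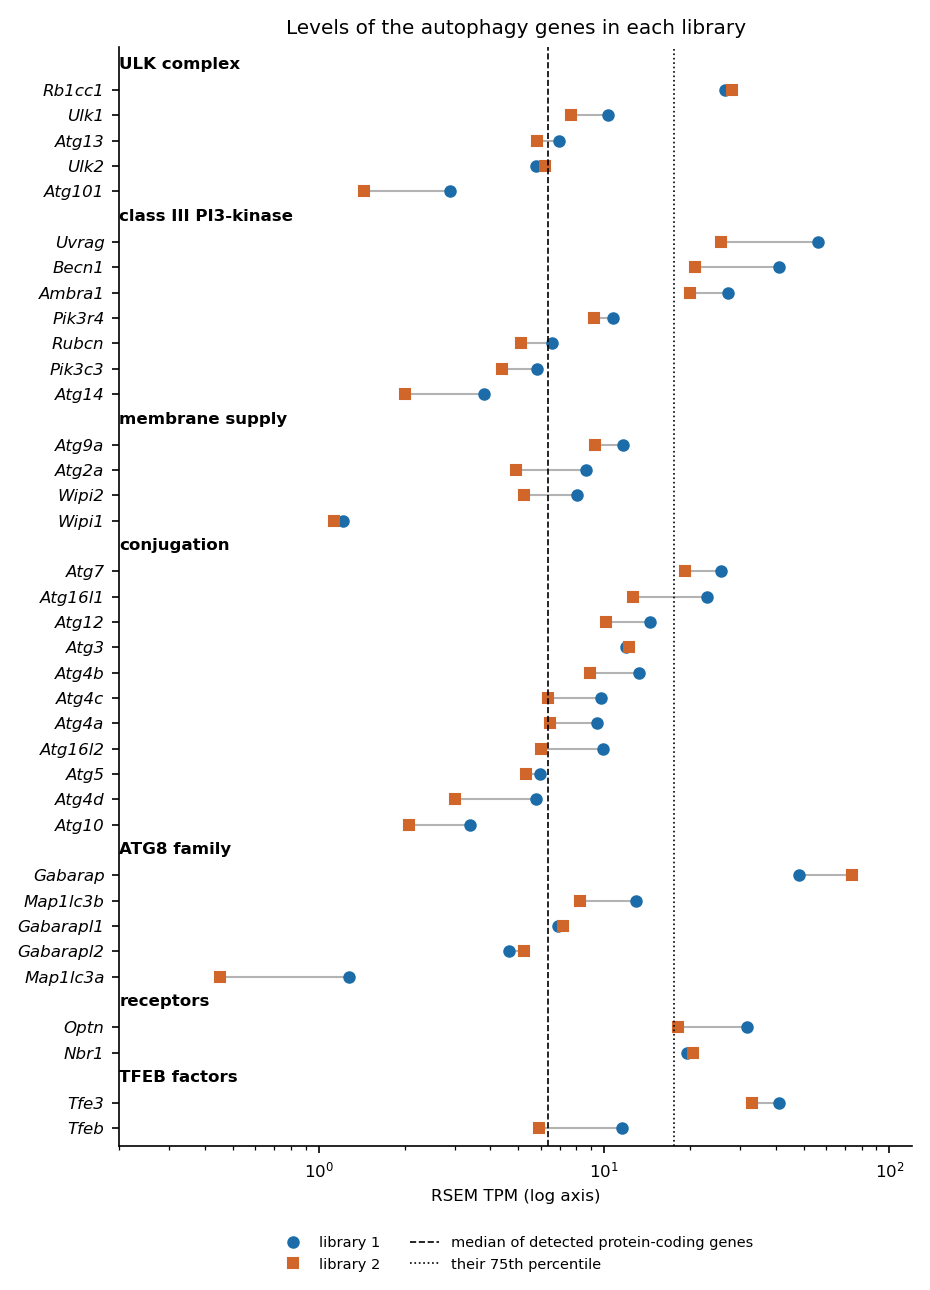
RSEM TPM on a log axis of each of the 36 members in library 1 (circles) and library 2 (squares), grouped by role and ordered by mean level, with the median (6.38 TPM, dashed) and the 75th percentile (17.6 TPM, dotted) of detected protein-coding genes. Gabarap, Uvrag, Tfe3 and Becn1 have the highest means, and most other members lie between 1 and 30 TPM.

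Most pairs of members kept their order between the libraries. Neighbours in the order of mean level, which are close in level by construction, often did not. Of the 630 pairs of members, 572 had the same order in both libraries, and 515 had it in both libraries with both programs, RSEM and kallisto. Of the 35 pairs next to each other in the order of mean level, 9 kept their order in both libraries. In 5 neighbouring pairs the values did not overlap once the libraries were brought to 1 scale: Atg16l1 above Atg12, Pik3r4 above Ulk1, Atg5 above Pik3c3, Atg4d above Atg14 and Atg101 above Wipi1. The other 30 neighbours did not differ beyond the spread of the libraries.

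In the ULK complex, the scaffold outranked the kinases. Rb1cc1, which encodes the large scaffold protein FIP200, had 26.5 TPM in the first library and 28.2 TPM in the second. The kinase gene Ulk1 had 10.3 and 7.67 TPM in the same order, and its paralog Ulk2 had 5.76 and 6.19 TPM. Rb1cc1 was thus 2.57 times as abundant as Ulk1 in library 1 and 3.67 times in library 2, with no overlap. The adaptor gene Atg13 lay close to Ulk2, at 6.93 and 5.82 TPM. The lowest of the 5 was Atg101, whose product stabilises ATG13, at 2.89 and 1.44 TPM from only 64 and 30 counts. The lead of Rb1cc1 was smaller among protein-coding transcripts, at 8.55 and 8.17 TPM for Rb1cc1 against 5.60 and 4.97 TPM for Ulk1. In that measure Ulk1 and Ulk2 were level, with ratios of 1.01 and 1.00.

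The 7 genes of the class III PI3-kinase complexes had the widest range after the ATG8 family, from 2.91 to 41.0 TPM in mean level. Uvrag, whose product directs the lipid kinase to late endosomes, stood at 56.3 TPM in the first library and 25.8 TPM in the second. Becn1, which encodes the core subunit beclin 1, stood at 41.1 and 20.8 TPM. Ambra1, which encodes a regulator that binds beclin 1, stood at 27.1 and 19.9 TPM. These 3 genes were above the 75th percentile, while the enzyme itself was not. The catalytic subunit gene Pik3c3 had 5.83 and 4.38 TPM, and the regulatory kinase-like subunit gene Pik3r4 had 10.7 and 9.21 TPM. Atg14, which encodes the subunit that sends the complex to forming autophagosomes, had 3.81 and 2.01 TPM. Uvrag was thus 14.8 and 12.8 times as abundant as Atg14, its alternative partner in the complex. In coding transcripts the ratio was 2.74 and 3.43 by RSEM and 1.38 and 1.85 by kallisto. Rubcn, whose product rubicon restrains the UVRAG complex and serves phagocytosis, had 6.55 and 5.12 TPM.

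The high levels of Uvrag and Becn1 lay mostly in transcripts not annotated as coding. Becn1 (chr11:101285952-101302286, minus strand, mm10) has 17 annotated transcripts, 6 of them retained introns, that is, spliced forms that keep at least 1 intron. Only 6.64% of its TPM in library 1 and 9.35% in library 2 fell in protein-coding transcripts, against 73.0% and 84.1% in retained-intron transcripts. Its coding transcripts amounted to 2.73 and 1.94 TPM, which moved Becn1 from rank 4 of the 36 members by gene level to rank 31 by coding level. By this measure Becn1 lay below Pik3c3 in both libraries, at 0.468 and 0.599 of its level, whereas by gene level it was 7.05 and 4.74 times as abundant. With kallisto the coding share of Becn1 was 6.13% and 6.26%, and the coding ratio to Pik3c3 was 0.768 and 0.634. The programs differed in where the rest went. RSEM gave most to the retained-intron transcript Becn1-210 (21.8% and 31.4%), while kallisto gave most to a processed transcript of 463 bases (22.4% and 25.3%).

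Uvrag (chr7:98885021-99141141, minus strand, mm10) had 15.4% and 26.8% of its TPM in its only protein-coding transcript, Uvrag-201, which amounts to 8.68 and 6.89 TPM. The retained-intron transcripts of Uvrag summed to 32.9 TPM in library 1 and to 10.8 TPM in library 2. Most of that gap lay in Uvrag-202, at 21.7 and 4.58 TPM. With kallisto Uvrag-202 had 5.61 and 5.04 TPM on that program's scale, and the largest share in library 1 went to Uvrag-204, a processed transcript of 366 bases (42.9% and 21.6%). The coding share of Uvrag with kallisto was 5.69% and 10.6%. A low coding share of Becn1 and Uvrag was thus common to both programs, while the split among their noncoding transcripts was not.

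The 4 genes of membrane supply lay near or below the middle of the range. Atg9a, which encodes the lipid scramblase on the vesicles that seed autophagosomes, had 11.7 and 9.32 TPM. Atg2a, which encodes a protein that carries lipids into the growing membrane, had 8.63 and 4.93 TPM. The proteins WIPI1 and WIPI2 read the lipid mark, and WIPI2 recruits ATG16L1. Wipi2 had 8.01 and 5.24 TPM and Wipi1 had 1.22 and 1.13 TPM, a ratio of 6.57 and 4.64. Wipi1 rested on 54 and 55 counts, and none of its TPM lay outside protein-coding transcripts.

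The 11 conjugation genes had a median level of 8.07 TPM and ranged from 2.74 to 22.4 TPM. The enzyme that activates both ubiquitin-like systems was the highest: Atg7, the shared E1 enzyme, had 25.6 and 19.2 TPM. The E2 enzymes were lower, with 12.0 and 12.3 TPM for Atg3, which serves the ATG8 proteins, and 3.39 and 2.08 TPM for Atg10, which serves ATG12. Atg10 rested on 84 and 64 counts, and Atg7 was 7.56 and 9.24 times as abundant. The ATG12-ATG5-ATG16L1 complex sets where ATG8 proteins are attached. Atg16l1 had 22.9 and 12.6 TPM, Atg12 had 14.4 and 10.2 TPM, and Atg5 had 5.95 and 5.31 TPM. In coding transcripts Atg12 and Atg5 were nearly level, at 5.25 and 5.16 TPM for Atg12 against 5.95 and 5.31 TPM for Atg5. All of the TPM of Atg5 lay in its coding transcript with RSEM, and 83.6% and 100% with kallisto. Atg16l2, whose product resembles ATG16L1, had 9.92 and 6.01 TPM.

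The ATG4 proteases trim ATG8 proteins before they are attached and free them afterwards. Their 4 genes were all detected, in the same order in both libraries except for Atg4a and Atg4c, which changed places. Atg4b, the protease with the broadest activity on ATG8 proteins, had 13.3 and 8.91 TPM, and Atg4d had 5.78 and 3.01 TPM. Atg4c had 9.76 and 6.37 TPM and Atg4a had 9.46 and 6.47 TPM. Atg4b led by gene level but not by coding level, with 66.1% and 58.5% of its TPM in retained-intron transcripts. Its coding transcripts had 3.67 and 2.59 TPM, against 8.08 and 5.77 TPM for Atg4c and 6.38 and 4.77 TPM for Atg4a.

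The ATG8 family was dominated by 1 gene. Gabarap (chr11:69991143-69994951, plus strand, mm10) had 48.2 TPM in the first library and 73.7 TPM in the second. It held 65.2% and 77.8% of the summed TPM of the 5 family members. Map1lc3b, which encodes LC3B, the protein commonly used to mark autophagosomes, had 12.9 and 8.22 TPM. Gabarap was 3.74 and 8.97 times as abundant as Map1lc3b by RSEM and 3.47 and 7.44 times by kallisto. In coding transcripts the ratio was 4.61 and 14.4. Gabarapl1 had 6.91 and 7.16 TPM and Gabarapl2 had 4.66 and 5.24 TPM, both close to the median of all detected genes. Map1lc3a had 1.28 and 0.450 TPM. Gabarap was first among the 36 members by gene level and by coding level, with 37.0 and 64.6 TPM in coding transcripts. By RSEM the gap between its libraries was mainly in Gabarap-202, a coding transcript of 750 bases with 8.72 and 26.7 TPM. It was less in Gabarap-201, with 28.3 and 37.9 TPM. By kallisto Gabarap-202 held 5.05e-05% and 27.8% of the gene's TPM, and Gabarap-201 held 64.5% and 51.6%.

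Near-identical processed pseudogenes could take reads from the ATG8 genes. At 90% identity or more over at least 300 bases, Gabarapl2 had 6 such copies, which held 3.05 and 6 counts in all against 133 and 122 for Gabarapl2. Map1lc3b had 5 copies, with 0 and 1.29 counts against 814 and 570 for the gene. With kallisto the copies of Gabarapl2 held 19.9 and 15 estimated counts.

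Both cargo receptors were above the 75th percentile by mean level. Optn encodes optineurin, a receptor for ubiquitin-coated bacteria and damaged mitochondria, and Nbr1 encodes a receptor for ubiquitin-coated protein. Optn had 31.6 and 18.2 TPM, and Nbr1 had 19.6 and 20.4 TPM. By RSEM their order differed between the libraries. Optn was 1.61 times as high as Nbr1 in library 1 and 0.890 times in library 2. By kallisto Optn was the higher in both libraries, at 2.06 and 1.26 times. None of the transcripts of Optn is annotated as a retained intron, and 43.2% and 50.2% of its TPM lay in noncoding processed transcripts.

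Of the TFEB factors, Tfe3 was the more abundant. Tfe3 had 41.0 and 32.9 TPM and Tfeb had 11.6 and 5.90 TPM, so Tfe3 was 3.54 and 5.58 times as high. The lead was smaller in coding transcripts, at 1.58 and 3.53 times by RSEM. By kallisto the coding ratio was 0.706 in library 1 and 1.92 in library 2, so the order of the coding transcripts of Tfe3 and Tfeb was not settled. The retained-intron share of Tfe3 was 59.9% and 40.1%, against 10.2% and 5.42% for Tfeb.

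TFEB and TFE3 bind the E-box CACGTG, often with flanks that make GTCACGTG, and autophagy genes are among their known targets. RefSeq promoters on GRCm38.p6, from 250 bases before to 50 bases after the start site, were matched for 30 of the 36 members, some of them with more than 1 start site. Rb1cc1, Becn1, Pik3c3, Atg12, Atg16l1 and Map1lc3a were not matched. The letters CACGTG, which read the same on both strands, occurred at 1 or more start sites in 5 of the 30 members (16.7%) and in 2187 of 27025 genes (8.09%). The longer GTCACGTG, searched on both strands and containing the shorter motif, occurred in Atg14, Atg3 and Atg7 (10% of the 30) and in 2.55% of all genes with a promoter entry. The windows are shown because they hold the letters these factors read, 5′ to 3′ on the gene's strand, with CACGTG in capitals.
Atg14: aaacaaaatccCACGTGactggccctga
Atg3, distal: cctccttttgtCACGTGtcctgggagag
Atg3, proximal: gagagtcgagtCACGTGaggccttaggt
Atg5: ggagcgcttgcCACGTGgtcttggtgac
Atg7: atattggtggtCACGTGtgcagtaagtg
Rubcn: gcctagcacatCACGTGtacccaggtta
The windows lie at chr14:47568419-47568446 (minus strand) for Atg14, chr16:45158724-45158751 and chr16:45158747-45158774 (plus) for Atg3, and chr10:44268314-44268341 (plus) for Atg5. Those of Atg7 and Rubcn lie at chr6:114670953-114670980 (plus) and chr16:32868438-32868465 (minus). The 5 genes with the letters ranged from 2.91 TPM for Atg14 to 22.4 TPM for Atg7, so they were not a group of 1 level. The start sites used for Atg7, Atg14 and Rubcn lie 27999, 2215 and 9400 bases inside the M21 gene, so their windows belong to internal starts. A match describes the sequence only, since no binding was measured.

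By TPM, the median share in transcripts annotated as coding was lower for the members than for genes in general. The median coding share of the 32 members with 100 or more counts in both libraries was 62.3% in library 1 and 62.1% in library 2. Over all protein-coding genes with that depth the medians were 75.3% and 78.9%. Of these 32 members, 22 had 50% or more of their TPM in coding transcripts in both libraries, where 76.2% of all genes at that depth did. By shares of RSEM counts, an alternative chosen after seeing the data, 27 of the 32 members did, against 85.7% of genes. Retained-intron transcripts reached 50% or more in both libraries in 4 members: Becn1, Atg4b, Pik3r4 and Atg16l2. Over all genes at that depth 6.71% did so. Counted only over genes that have an annotated retained-intron transcript, 4 of 24 members and 10.1% of genes did so. In library 1 alone the count was 7, against 8.93% of genes, and in library 2 alone it was 4, against 9.14%. The median retained-intron share of the 24 members was 37.7% and 41.0%, against 25% and 22.1% over genes with such a transcript.

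**Figure D2:**
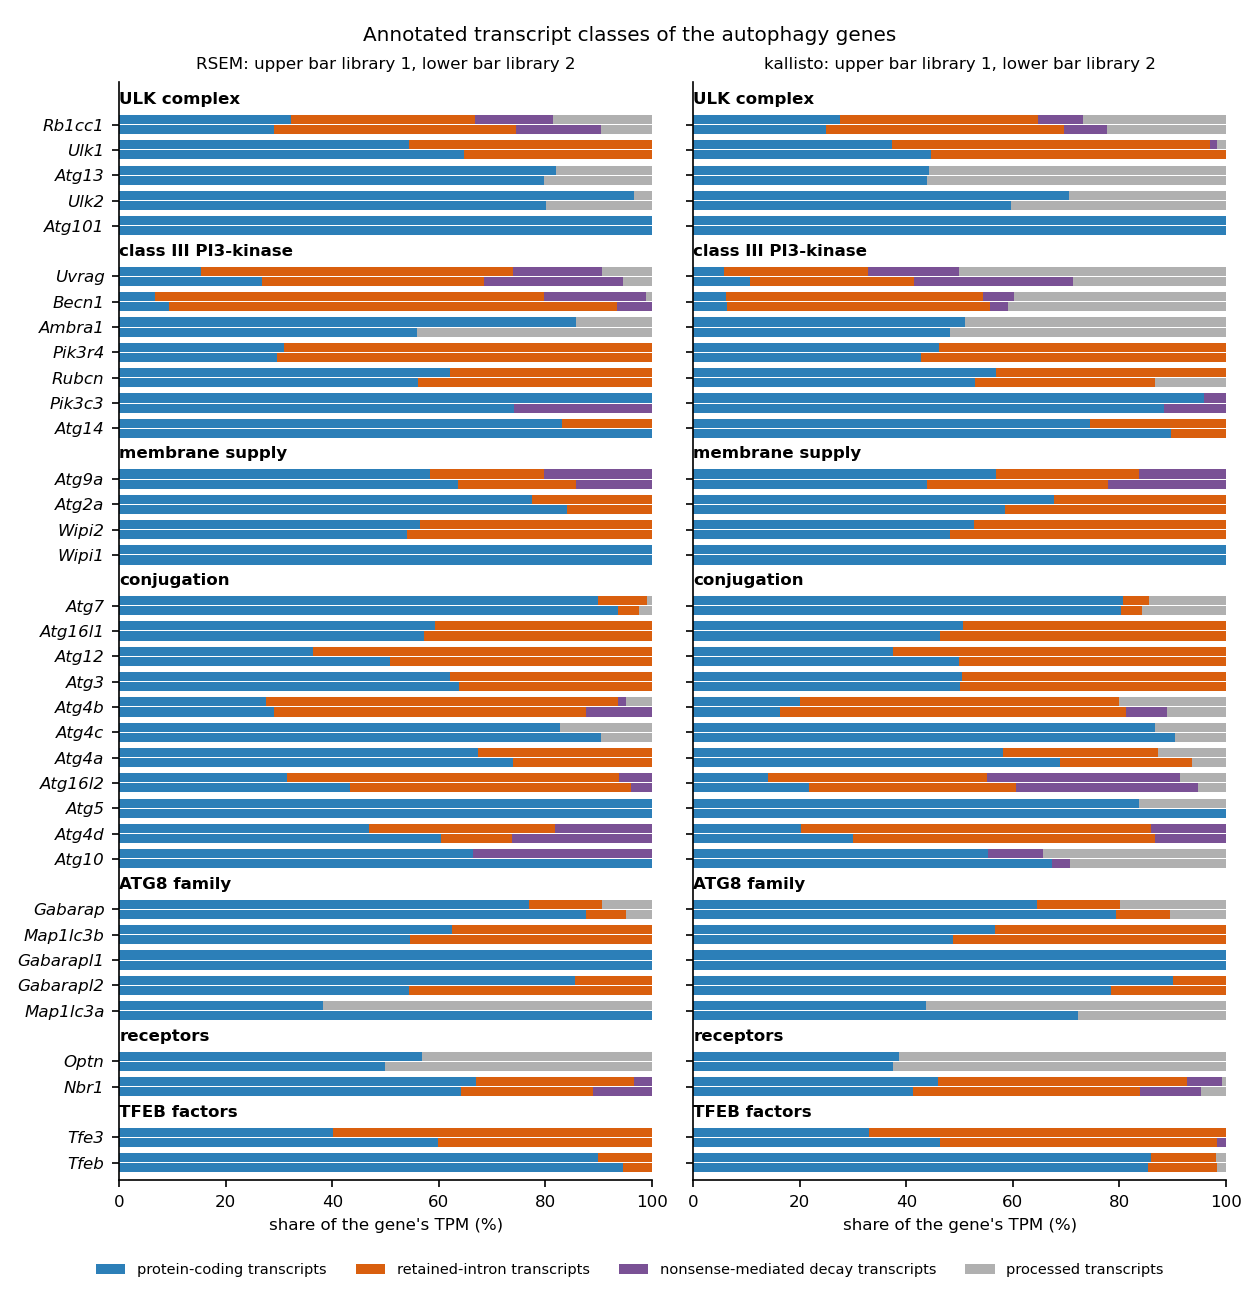
Share of each member's TPM in protein-coding, retained-intron, nonsense-mediated decay and processed transcripts, in percent, for library 1 (upper bar) and library 2 (lower bar), with RSEM on the left and kallisto on the right. Becn1, Uvrag and Atg4b have coding shares under 30% in every bar. Gabarapl1 is at 100%, as are Atg101 and Wipi1, which have under 100 counts in each library.

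The choice of members with a high retained-intron share depended on the program. Kallisto placed 6 members at or above 50% in both libraries (Atg12, Atg4b, Atg4d, Pik3r4, Tfe3 and Ulk1) where 10.3% of genes did so, and Atg4b and Pik3r4 were the only ones in common with RSEM. Pik3r4 had 69.2% and 70.5% with RSEM and 53.8% and 57.3% with kallisto. Shares of RSEM counts in place of TPM gave 4 members (Becn1, Map1lc3b, Pik3r4 and Tfe3), where 5.48% of genes passed. Kallisto placed 14 members at or above 50% coding, all of them among the 22, where 62.5% of genes passed. Nuclear RNA holds transcripts still being spliced, so an intron that was kept and an intron not yet removed cannot be told apart in these shares. From library 1 to library 2 the retained-intron share was lower in 15 of the 24 members with such a transcript, near the 59.9% of genes in which it was lower. With kallisto it was lower in 11 of the 24, against 56.2% of genes, and 10 members were lower with both programs.

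**Figure D3:**
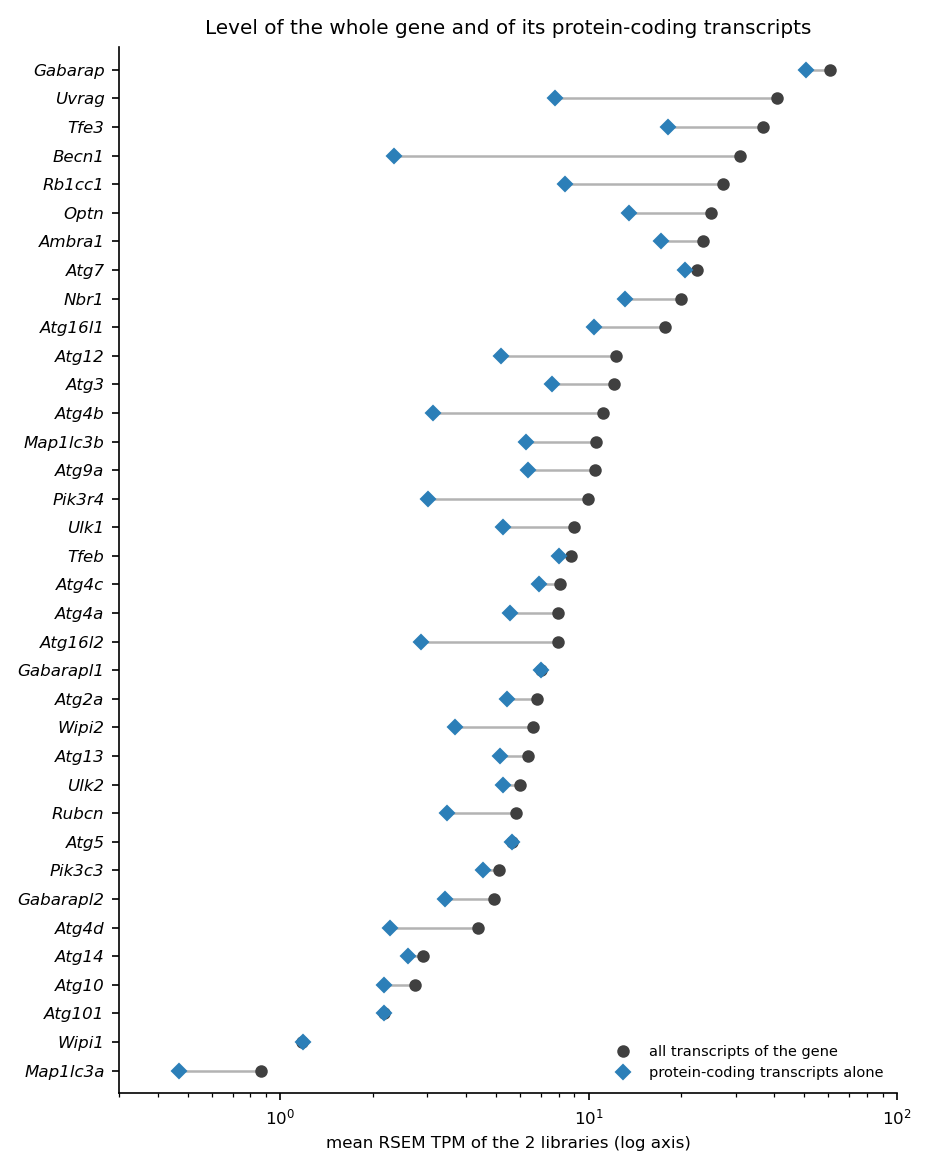
Mean RSEM TPM of the 2 libraries, on a log axis, for all transcripts of each member (circles) and for its protein-coding transcripts alone (diamonds), ordered by the level of the whole gene. The long lines of Becn1, Uvrag, Atg4b, Pik3r4 and Rb1cc1 show the largest distance between the measures, and Gabarap is first in both.

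Both libraries carry the same treatment, so their differences describe reproducibility and not a response. Ratios are library 2 over library 1 in TPM on the log2 scale. The median ratio of detected protein-coding genes, -0.36, was set to 0. None of the 32 members with a mean count of at least 100 was over 2-fold apart, where 3.08% of protein-coding genes at that depth were. Gabarap came closest at 0.97, with a 95% counting interval of 0.85 to 1.09, and 3.39% of genes were as far apart. It was higher in library 2 with kallisto as well, at 1.01, which put it just past 2-fold there. At the other end, Uvrag was at -0.77 (interval -0.85 to -0.68), Becn1 at -0.63 (-0.74 to -0.52) and Tfeb at -0.61 (-0.86 to -0.37). With kallisto Uvrag was at -0.99, Becn1 at -0.38 and Tfeb at -1.02. On counts scaled by TMM factors, which ignore the transcript lengths that enter TPM, Uvrag was at -0.41, Becn1 at -0.25, Tfeb at -0.49 and Gabarap at 0.88.

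Of the 32 members, 13 were higher and 19 lower in library 2 after centring, where 49.3% of genes were higher. The counting interval lay above 0 for 7 members, against 32.6% of genes. These were Gabarap, Gabarapl1, Gabarapl2, Rb1cc1, Ulk2, Atg3 and Nbr1, at 0.39 to 0.97. It lay below 0 for 13 members, against 34.7% of genes, with Uvrag, Becn1, Tfeb, Atg4d and Atg14 the lowest. For 18 of these 20 members the sign was the same with kallisto and with TMM factors. The exceptions were Atg4c, at -0.26 with RSEM and 0.07 with kallisto, and Atg16l2, at -0.36 in TPM and 0.03 with TMM factors. By role, 3 of 4 ATG8 genes and 3 of 4 ULK complex genes were higher in library 2. Of the conjugation genes 8 of 10 were lower, as were 5 of 7 PI3-kinase genes. These are counts of sign alone and include members whose interval spanned 0, such as Atg13, Ambra1, Atg7 and Atg12. The interval of Ambra1 spanned 0 at -0.09 by RSEM, but its ratio was -0.47 with kallisto and -0.47 with TMM factors. In these roles the sign differed with kallisto for Pik3c3, Atg4c and Atg5. With TMM factors it differed for Ulk1, Pik3r4, Atg12 and Atg16l2. The median absolute ratio was 0.33 for the members and 0.28 for all genes at that depth. RNA input and the mitochondrial share also differed between the libraries, and their part in these ratios was not tested. The kallisto and TMM values of Uvrag and Becn1 lay outside their intervals, which leave out error in assigning reads to transcripts. The intervals cover counting error at most, because each side of a ratio is 1 library. They may be too narrow even for that, since reads that carry no molecular identifier can stem from the same molecule.

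**Figure D4:**
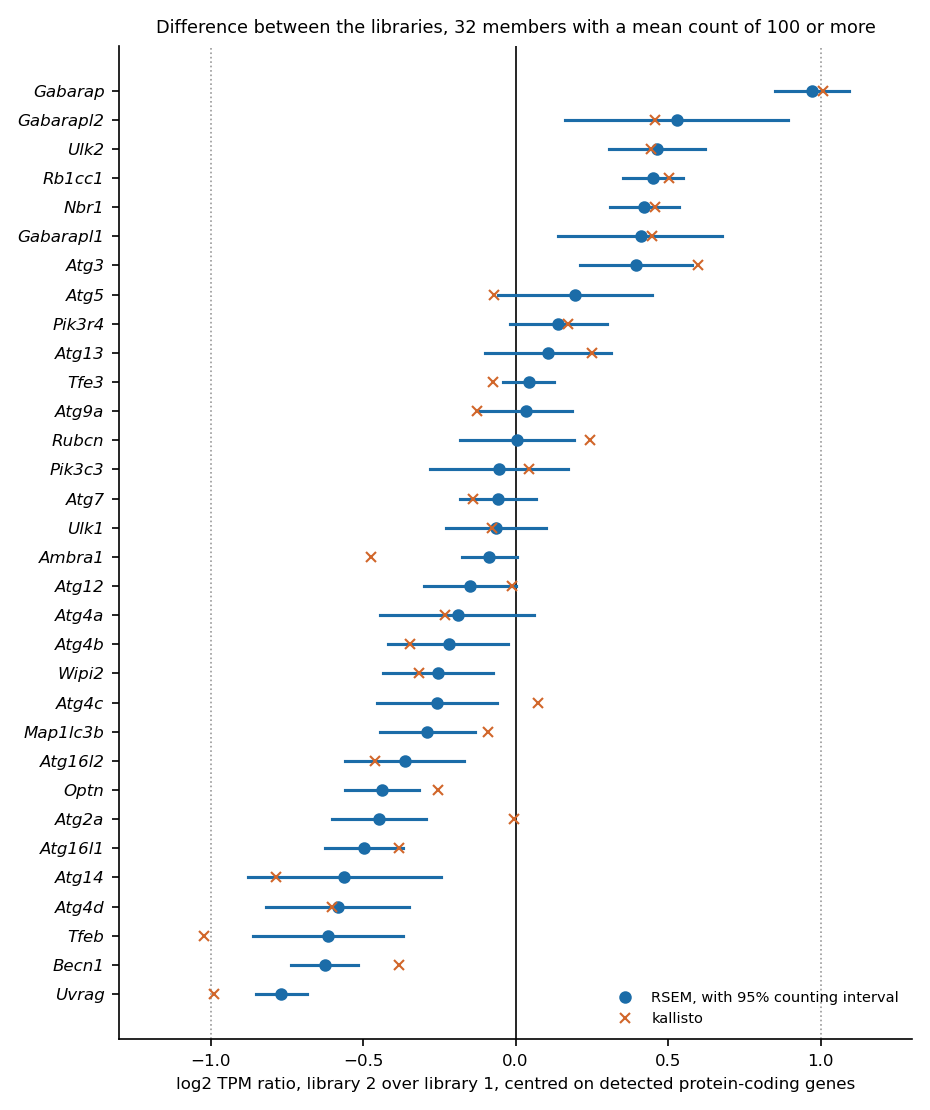
Centred log2 TPM ratio, library 2 over library 1, of the 32 members with a mean expected count of 100 or more, with RSEM points and 95% counting intervals (lines) and kallisto values (crosses); dotted lines mark 2-fold. RSEM ratios run from -0.77 for Uvrag to 0.97 for Gabarap.

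Some members share their locus with another gene. Of the 36, 17 overlap another annotated gene, 14 overlap one on the opposite strand, and 11 share exon bases with one. The same shares over all genes are not given here, so these counts do not set the members apart. Whether the strand was used in counting is not stated, so reads of these bases may be split between the partners. The largest shared stretch among the high members was that of Becn1, with 3104 exon bases in common with Cntd1 on the opposite strand, a gene given 34.1 and 9.04 counts against 1635 and 1123 for Becn1. Uvrag shared 1589 bases with the antisense gene Gm45187, which had 107 and 72.4 counts against 3024 and 1859. Atg4d shared 1405 bases with Kri1, which had more counts than Atg4d in both libraries, 686 and 418 against 388 and 248. Rb1cc1 shared 558 bases with its antisense gene 4732440D04Rik, which had 597 and 704 counts. Levels of Atg4d, and the transcript shares of Becn1 and Uvrag, are uncertain for this reason.

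A wider list of 46 other autophagy genes, from upstream kinases to fusion factors, was detected in full, with a median of 13.5 TPM. Of protein-coding genes 49.9% were detected. Atg9b only just passed, with 10 and 18 counts, and at a minimum of 50 counts 43 of the list passed. The share of all genes at that minimum is not given here. Of the 43 with at least 100 counts on average, 0 were over 2-fold apart between the libraries, where 3.08% of genes were. A total of 23 were higher in library 2, near the 49.3% of genes that were. Among the receptors, Sqstm1, which encodes the ubiquitin-binding p62, stood far above both receptor members, at 477 and 515 TPM, followed by mean level by Ncoa4 (65.5 and 47.3 TPM), the ferritin receptor, and Tax1bp1 (60.8 and 45.6 TPM). The lowest was Bnip3, a receptor on mitochondria, at 1.19 and 1.32 TPM. The gene with the highest mean of the whole list was Vmp1, a lipid scramblase of the endoplasmic reticulum, at 707 and 395 TPM, above Sqstm1 in library 1 and below it in library 2, with its partner Tmem41b at 14.9 and 14.0 TPM. Wdr45b, a relative of the WIPI genes, had 16.6 and 10.4 TPM, and Atg9b, the paralog of Atg9a, was lowest at 0.180 and 0.350 TPM.

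Genes that control the ULK complex had a median of 8.9 TPM, against 8.4 TPM for the members. The medians of the other receptors and of the other membrane genes, at 7.8 and 8.3 TPM, were also near the median of the members. Those of the fusion genes and of the other factors were higher, at 21.5 and 22.8 TPM. Rheb, the activator of the kinase mTORC1, had 27.8 and 21.2 TPM, and Rptor, the mTORC1 subunit raptor, had 21.4 and 14.5 TPM. Tsc2, the inhibitor of Rheb, had 13.5 and 13.3 TPM, and the lowest of these 10 was the mTOR subunit gene Mlst8 with 3.03 and 2.24 TPM. Among 13 fusion genes, Tecpr1, which encodes a tether of autophagosomes and lysosomes, led with 128 and 76.9 TPM. The late-endosome GTPase gene Rab7 had 53.3 and 61.1 TPM, the SNARE gene Vamp8 had 57.3 and 39.4 TPM, and Snap29 was lowest with 5.76 and 5.26 TPM. Of the other factors, the TFEB relatives Tfec (40.3 and 53.9 TPM) and Mitf (30.9 and 21.7 TPM) both stood above Tfeb in each library. Zkscan3, described as a repressor of autophagy genes, had 23.7 and 21.9 TPM, and Foxo1 was lowest with 0.940 and 1.04 TPM. By gene level the order within the MiT family was thus not the same in both libraries, with Tfe3 first in library 1 and Tfec first in library 2, and Tfeb last in each.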

How the data were processed

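Total RNA depleted of ribosomal RNA was measured in 2 libraries of 1 group. The authors deposited, per library, RSEM gene and transcript tables and a kallisto transcript table. Per the file headers these hold an expected count (estimated count, not whole) and TPM. The assembly is mm10 per the labels, and GENCODE M21 supplied symbols, transcript classes and coordinates. For the aligner and program versions, none was given in the sources used here. Depth was 19797829 and 17213606 expected counts.

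All 36 symbols matched 1 gene each. Levels are the deposited TPM, without pseudocount. Ratios of TPM were centred on detected protein-coding genes, with Clopper-Pearson 95% intervals from the rounded counts. No test was run, since there is 1 group. TMM factors came from edgeR 4.0.16 in R 4.3.3 on rounded counts. Counts and medians of transcript shares used genes with 100 or more counts in both libraries, while shares of single members had no minimum. Pseudogene copies were found with BLAST 2.17.0. The ratio script was tested on simulated counts with counting error alone. That test used no TPM, so it does not cover the TPM ratios given here. Other tools were Python 3.11.15, pandas 2.3.3, numpy 2.4.6 and scipy 1.17.1. Alternatives were kallisto, other count minimums, no centring, TMM, a pseudocount of 1, rescaled TPM and each library alone.

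All 36 members are named. Of the wider list, the 3 highest genes and the lowest of each role are named. The members, lists and rules were chosen with earlier results of these data known.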

Additional observations from a re-analysis of the deposited data

How the results depend on the processing

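With 2 libraries of 1 group, no result has a replicate check across conditions, and TPM depends on all features of a table. With kallisto the median level of the members was 4.73 TPM, against 3.52 TPM for detected protein-coding genes. After rescaling TPM over protein-coding genes alone it was 27.5 TPM, against 20.99 TPM. With no filter on low values 25 members were above the 75th percentile, since undetected genes then entered the ranking. Members over 2-fold apart numbered 2 with kallisto (Gabarap and Tfeb, where 2.07% of genes passed), 1 without centring (Uvrag, 7.72%) and 1 at a mean count of 10 (Map1lc3a, 7.58%). Without centring the median ratio of the 35 detected members was -0.44, in place of -0.09. The count of members mostly in retained-intron transcripts was 4 to 7 when either library was left out, the 7 being library 1 alone (8.93% of genes), and 14 at a share of 30% (21.4% of genes). The count mostly in coding transcripts was 14 with kallisto (62.5% of genes). The causes were not tested. The numbers of members detected and of the wider list detected kept within 1.5 times under each alternative run. Leaving out either library gave medians of 6.82 and 10.1 TPM. No paired analysis was possible because there is 1 group. At 20 and 9 counts, Map1lc3a is limited by depth.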
